A study of Mus musculus with 4 samples.

Results

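Genes of ileal bile acid uptake and of bile acid signalling through the farnesoid X receptor (FXR) were followed in small intestine with and without the Cyp3a genes. The 8 genes were Slc10a2, Fabp6, Fgf15, Slc51a, Slc51b, Nr1h4, Nr0b2 and Gpbar1. They were chosen by name and not by a cut on measured values, though earlier results of these data were known. Each had 1 probe on the array, so they make up 8 of the 21153 genes with a named probe, and 7 of them were among the 14395 genes tested. Total RNA came from small intestine of Cyp3a-/- mice, which lack the Cyp3a gene cluster, and of wild-type mice without that deletion. Each genotype had 2 arrays, called knockout 1 and 2 and wild type 1 and 2, and the study used different animals in its 2 experiments. Each RNA carried a single dye, Cy3, on a mouse expression array made by Agilent. Strain, age, diet, the stretch of intestine taken, the way the deletion was made and whether an array held 1 animal or a pool are not given in the sources used here.

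Bile acids made in the liver are secreted into the gut, where they help to dissolve fat, and most are taken back up in the ileum and returned to the liver. Slc10a2 carries them from the lumen into ileal enterocytes, Fabp6 binds them inside the cell, and the heterodimer of Slc51a and Slc51b exports them across the basolateral membrane. Inside the enterocyte bile acids activate FXR, encoded by Nr1h4, which switches on Fgf15, a hormone that lowers bile acid synthesis in the liver, as well as Nr0b2, Fabp6 and the Slc51 genes. Cyp3a enzymes hydroxylate bile acids among many other substrates.

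Levels below are log2 processed signal minus the 75th percentile of the same array, so levels of 1 gene can be compared between arrays, while levels of different probes are not set against each other. That 75th percentile was a signal of 322 and 175 in knockout 1 and 2 and of 226 and 356 in wild type 1 and 2. Between 55.1% and 64.4% of probes were well above background on an array, by the scanner software's own flag. The deletion was visible in Cyp3a11, a major Cyp3a gene of gut and liver, with levels of -5.77 and -4.52 in the knockout arrays and 5.05 and 5.78 in wild type. The knockout level was lower by at least 920-fold, a bound because the knockout arrays were not well above background (limma's adjusted p = 0.00236). Knockout 1 stood apart, with a correlation across genes of 0.948 with knockout 2 and of 0.966 and 0.962 with wild type 1 and 2, against 0.979 between the wild-type arrays. Knockout 1 and wild type 2 shared slide 2 and its scan, while knockout 2 was on slide 3 and wild type 1 on slide 1. All 10 enterocyte markers and all 8 smooth muscle markers were well above background on all 4 arrays, so the RNA held both mucosa and muscle. With so few arrays, their number sets how precise any difference can be, and the spread within a genotype may be technical.

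Of the 8 genes, none passed the threshold of an adjusted p under 0.05 in limma's fit over all 14395 genes, and 0 of the 7 tested genes had an unadjusted p under 0.05. Over all genes 0.0417% were called, 6 genes in all, each lower in the knockout. Only 0.438% of all genes had an unadjusted p under 0.05 in limma, so a count of 0 is not particular to these genes. The median difference, knockout minus wild type, was 0.19 over the 7 tested genes and 0.04 over all genes. The array values split the 8 genes into 2 sets. Slc51a, Slc51b and Nr1h4 lay far above background on every array, while Slc10a2, Fabp6, Fgf15, Nr0b2 and Gpbar1 lay near it.

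**Figure D1:**
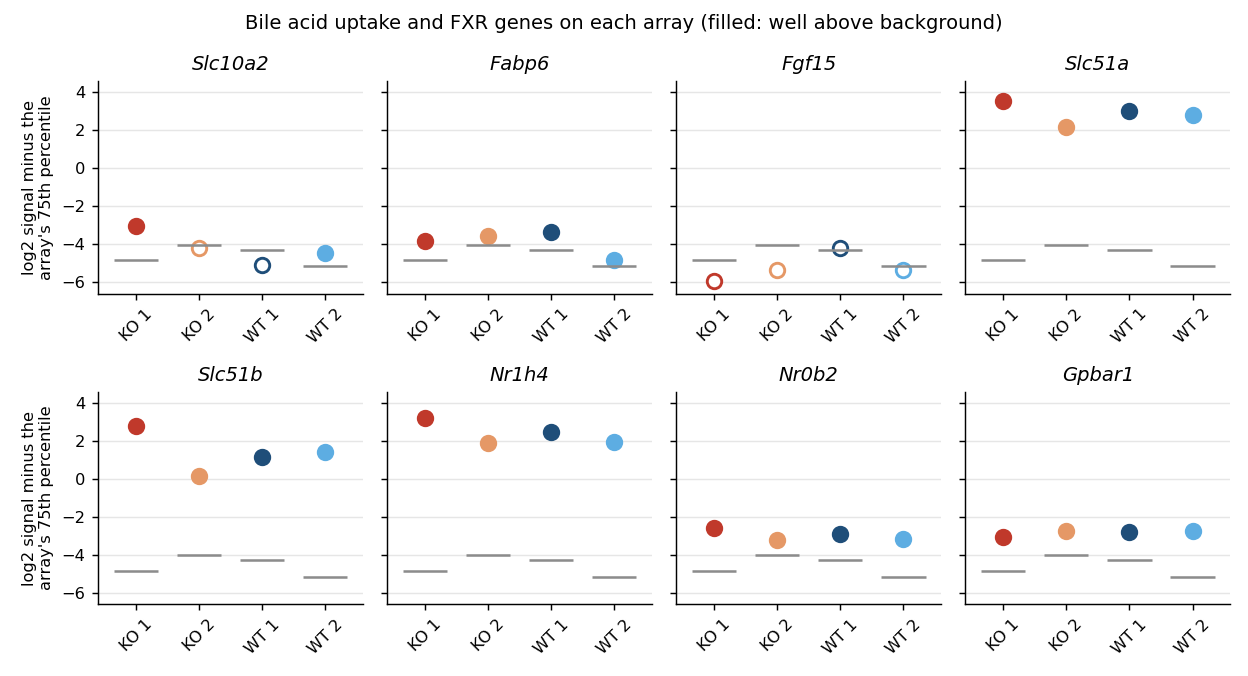
Level of each of the 8 genes on each array (y axis: log2 signal minus the array's 75th percentile), with the 2 KO arrays left of the 2 WT arrays. Filled points were well above background and open points were not, and grey bars mark the lowest level of any probe well above background on that array. Slc51a, Slc51b and Nr1h4 sit far above the bars, Fgf15 is open on all 4 arrays and Slc10a2 on 2 of them.

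Uptake was represented by Slc10a2, the sodium-dependent bile acid transporter of the ileal brush border. Its processed signal was 38.9 and 9.46 in knockout 1 and 2 and 6.66 and 16.1 in wild type 1 and 2. Only knockout 1 and wild type 2 were well above background, so each genotype had 1 array with a measured signal and 1 without. Those 2 arrays shared a slide and were the brightest, with 75th percentiles of 322 and 356 against 175 in knockout 2 and 226 in wild type 1. The levels of Slc10a2 were -3.05 and -4.21 in the knockout arrays and -5.08 and -4.47 in the wild-type arrays. Both knockout values lay above both wild-type values, which held for 8.66% of all genes (14.7% were apart in either direction), but the value of knockout 2 was itself not well above background. The difference was 1.14 on the log2 scale (SE 0.58, 95% interval -0.26 to 2.55, limma's adjusted p = 1.00). Without knockout 1 the difference was 0.56. Within the slide that held both genotypes, where both values were measured, it was 1.42. The median of that within-slide difference was 0.08 over all genes. It was 1.06 over the enterocyte markers, 0.98 over markers of the proximal small intestine and 1.21 over distal ones.

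Fabp6, the ileal bile acid binding protein, was well above background on all 4 arrays, by a small margin. Its signal was 22.7 and 15.1 in knockout 1 and 2 and 22.2 and 12.6 in wild type, where the lowest signal of any probe well above background was 11.3 and 10.8 on the knockout arrays and 9.94 on wild type 2. The levels were -3.83 and -3.54 in the knockout arrays and -3.35 and -4.81 in the wild-type arrays. The genotypes overlapped, and the widest gap lay between the wild-type arrays, where it was 1.47. A gap at least that wide between wild-type arrays was found in 1.75% of genes. The difference was 0.40 (SE 0.60, 95% interval -1.05 to 1.85, limma's adjusted p = 1.00), and it was -0.34 without wild type 2. Within the slide that held both genotypes it was 0.98.

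The sequences before the start sites of Slc10a2 and Fabp6 are shown because both are genes of the ileum, Slc10a2 being known to need the factor HNF1 and Fabp6 to respond to FXR. They are RefSeq sequences of build GRCm38.p6, the 250 bases before the annotated start, 5′ to 3′ on the gene's own strand. Slc10a2 lies at chr8:5105288-5105537 and Fabp6 at chr11:43601563-43601812, both on the minus strand. Capitals mark matches to any of 5 motifs searched on both strands.
Slc10a2: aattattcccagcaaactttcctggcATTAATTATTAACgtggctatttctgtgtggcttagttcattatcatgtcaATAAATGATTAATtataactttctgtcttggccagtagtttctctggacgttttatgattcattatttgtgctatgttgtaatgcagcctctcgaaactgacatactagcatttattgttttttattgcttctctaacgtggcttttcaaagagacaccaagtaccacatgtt
Fabp6: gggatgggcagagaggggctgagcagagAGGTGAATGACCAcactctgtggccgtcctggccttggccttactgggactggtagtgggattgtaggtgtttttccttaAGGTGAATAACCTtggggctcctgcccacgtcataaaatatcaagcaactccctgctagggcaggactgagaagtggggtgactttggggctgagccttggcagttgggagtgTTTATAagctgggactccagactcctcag
The FXR motif was the inverted repeat of AGGTCA and TGACCT with 1 free base between them. The HNF1 motif was the palindrome of GTTAAT and ATTAAC with 1 free base between them, and the HNF4 motif was AGGTCA, an A and AGGTCA again. These were searched with at most 3 mismatches. The other motifs were the LRH-1 site CAAGGTCA and the TATA box TATAAA, both exact. The FXR and HNF4 motifs share AGGTCA, and the LRH-1 site holds all of it, so their matches can overlap. Slc10a2 had an HNF1 match with 1 mismatch, ATTAATTATTAAC, starting 224 bases before the start, and another with 3 mismatches. Fabp6 had FXR repeat matches with 2 mismatches each, AGGTGAATGACCA starting 222 bases and AGGTGAATAACCT starting 142 bases before the start, and a TATA box on the minus strand. Over all 32851 start sites in the table, 9.63% held an FXR repeat match, 7.58% an HNF1 match, 8.06% an HNF4 match, 1.33% the LRH-1 site and 12.4% the TATA box within the same 250 bases. A match is a description of letters and not a sign of binding.

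Export was represented by Slc51a and Slc51b, the α and β subunits of the organic solute transporter, which need each other to reach the membrane. Slc51a had signals of 3770 and 800 in knockout 1 and 2 and of 1824 and 2464 in wild type 1 and 2. Its levels were 3.55 and 2.19 in the knockout arrays and 3.02 and 2.79 in the wild-type arrays. The wild-type arrays thus lay between the knockout arrays, which were 2.56-fold apart. The difference between genotypes was -0.04 (SE 0.47, 95% interval -1.18 to 1.11, limma's adjusted p = 1.00). It was 0.75 within the slide that held both genotypes, and it was -0.71 without knockout 1 and 0.64 without knockout 2.

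Slc51b had signals of 2247 and 194 in knockout 1 and 2 and of 499 and 956 in wild type 1 and 2. In levels these were 2.80 and 0.15 in the knockout arrays and 1.15 and 1.43 in the wild-type arrays. Again the knockout arrays took both ends of the order and the wild-type arrays the middle. The knockout arrays were 6.28-fold apart after scaling, and a gap at least that wide between them was found in 1.17% of genes. The wild-type arrays differed by 0.28, a gap matched or passed by 53.2% of genes. The difference between genotypes was 0.19 (SE 0.80, 95% interval -1.76 to 2.14, limma's adjusted p = 1.00). It was -1.14 without knockout 1, and 1.52 without knockout 2, where limma's adjusted p was 0.0204 and the knockout's own spread no longer entered the fit. Within the slide that held both genotypes it was 1.37.

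The sequences before the start sites of Slc51a and Slc51b are shown because the 2 subunits took the same outer order of arrays. Slc51a lies at chr16:32487880-32488129 and Slc51b at chr9:65422774-65423023 in build GRCm38.p6, both on the minus strand, with capitals as above.
Slc51a: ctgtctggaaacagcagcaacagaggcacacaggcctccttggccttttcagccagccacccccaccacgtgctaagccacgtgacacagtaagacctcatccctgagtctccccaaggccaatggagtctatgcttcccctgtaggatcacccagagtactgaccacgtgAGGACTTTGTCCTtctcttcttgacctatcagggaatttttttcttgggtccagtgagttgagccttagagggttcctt
Slc51b: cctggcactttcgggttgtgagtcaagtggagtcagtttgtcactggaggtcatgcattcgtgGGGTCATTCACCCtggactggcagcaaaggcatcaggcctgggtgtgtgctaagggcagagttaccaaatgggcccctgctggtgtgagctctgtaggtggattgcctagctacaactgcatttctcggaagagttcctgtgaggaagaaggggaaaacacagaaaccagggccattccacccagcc
Each held 1 FXR repeat match with 3 mismatches, AGGACTTTGTCCT starting 79 bases before the start of Slc51a and GGGTCATTCACCC starting 187 bases before that of Slc51b. Neither held a match to the other 4 motifs within these 250 bases. Of the 8 genes, 7 had an entry in the table, and Fgf15 had none. In Nr1h4 the matches were to HNF4 and HNF1 with 2 mismatches each, in Nr0b2 to the TATA box, and Gpbar1 had 0 matches.

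The receptors were Nr1h4, which encodes the nuclear receptor FXR, and Gpbar1, which encodes the membrane bile acid receptor TGR5. Nr1h4 had signals of 2992 and 650 in knockout 1 and 2 and of 1259 and 1384 in wild type 1 and 2. Its levels were 3.21 and 1.89 in the knockout arrays and 2.48 and 1.96 in the wild-type arrays. Knockout 1 was highest and knockout 2 lowest, by little, as for the Slc51 genes. The difference was 0.33 (SE 0.48, limma's adjusted p = 1.00), and -0.33 and 0.99 without knockout 1 and knockout 2. Within the slide that held both genotypes it was 1.25.

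Gpbar1 is known from enteroendocrine L cells and macrophages. Each array gave a signal well above background, 38.7 and 26.5 in the knockout and 32.5 and 54.1 in wild type. Its levels were -3.06 and -2.72 in the knockout arrays and -2.80 and -2.72 in the wild-type arrays, the narrowest spread of the 8 genes. The difference was -0.14 (SE 0.36, 95% interval -1.02 to 0.75, limma's adjusted p = 1.00). Within the slide that held both genotypes it was -0.34. Knockout 1 was lowest, unlike in the other tested genes. All 8 macrophage markers were well above background on all arrays, with summed levels (linear signal over the 75th percentile) of 21.6 and 13.4 in the knockout and 19.0 and 14.8 in wild type. These sums lean on the brightest marker, and only 2 of the 8 were highest in knockout 1. Centred on each gene's mean, their median was 0.06 and -0.24 in the knockout and 0.15 and 0.06 in wild type. Of 5 L cell markers 3 were tested, and Gcg, the glucagon gene, had levels of -2.39 and -2.88 in the knockout and -2.28 and -3.49 in wild type.

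The FXR targets Fgf15 and Nr0b2 were dim. Fgf15, the ileal hormone gene, had signals of 5.24 and 4.24 in knockout 1 and 2 and of 12.4 and 8.62 in wild type 1 and 2. It was not well above background on any array, so it was not tested and no fold is given. Nr0b2, the corepressor SHP, was well above background on all 4 arrays with signals of 53.2 and 18.6 in the knockout and 30.3 and 39.6 in wild type. Its levels were -2.60 and -3.24 in the knockout arrays and -2.89 and -3.17 in the wild-type arrays, which overlapped. The difference was 0.11 (SE 0.41, 95% interval -0.88 to 1.11, limma's adjusted p = 1.00), and it was -0.20 without knockout 1. Within the slide that held both genotypes it was 0.57.

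**Figure D2:**
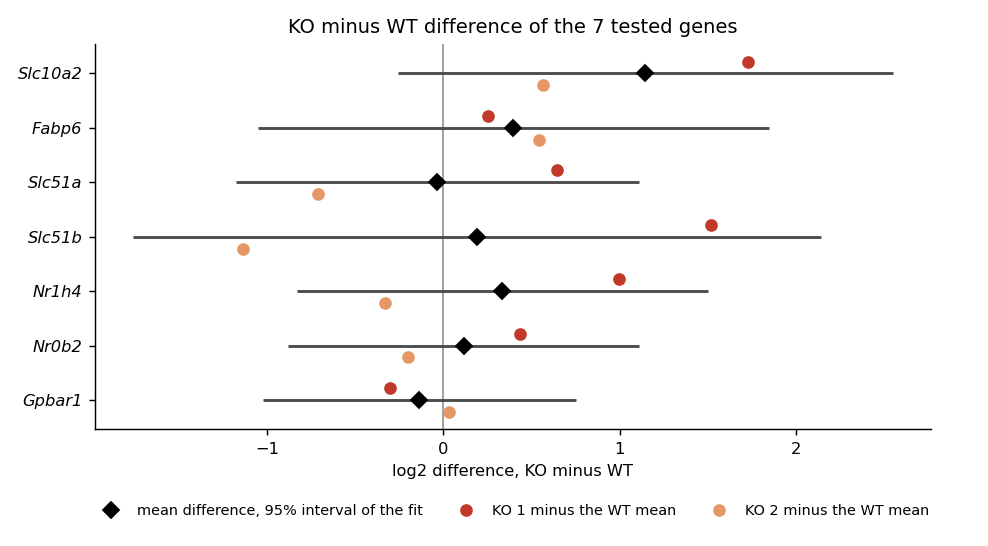
Difference between KO and WT for the 7 tested genes (x axis: log2 difference, KO minus WT). Diamonds with bars give the mean difference and the 95% interval of limma's fit, and red and orange points give KO 1 and KO 2 each minus the WT mean. Every interval includes 0, and for Slc51a, Slc51b, Nr1h4, Nr0b2 and Gpbar1 the 2 KO arrays lie on opposite sides of the WT mean.

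Of the 7 tested genes, 5 had their highest level in knockout 1 and 4 had their lowest in knockout 2, with 4 showing both. Over all genes knockout 1 was highest in 34.2%, knockout 2 lowest in 22.3%, and both held in 16.3%. Knockout 1 was highest in 90% of enterocyte, 88.9% of proximal and 70% of distal markers, and in 0% of smooth muscle markers. Both held in 40%, 72.2%, 50% and 0% of these, so this order of arrays is not particular to the bile acid genes. The tested genes' median relative to the wild-type mean was 0.64 in knockout 1 and -0.20 in knockout 2, against 0.03 and 0.04 over all genes. Only Slc10a2 had knockout values that did not overlap those of wild type, against 14.7% of all genes. In 6 of the 7 genes the knockout arrays differed from each other by more than the genotypes did. For Slc10a2 the margin was small, 1.16 against 1.14. This count sets single arrays against group means and was not made over all genes, so it shows nothing particular to these genes.

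Markers of the tissue's cell types also differed between arrays. The 10 enterocyte markers, among them Fabp2 and Krt20, had summed levels of 1248 and 718 in knockout 1 and 2 and of 949 and 682 in wild type 1 and 2. Their median difference from the wild-type mean was 0.91 in knockout 1 and -0.03 in knockout 2. Centred on each gene's mean, their median was lowest in wild type 2 (-0.39), with -0.26 in knockout 2. Knockout 2 was lowest for the proximal and distal enterocyte markers, at -0.45 and -0.60, as for Slc51a, Slc51b and Nr1h4. The 8 smooth muscle markers, led by Tagln and Acta2, ran the other way, with summed levels of 106 and 321 in the knockout and 187 and 214 in wild type. The part of tissue make-up in the differences between arrays was not tested, and in whole tissue fewer cells of a type and less RNA per cell cannot be told apart.

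**Figure D3:**
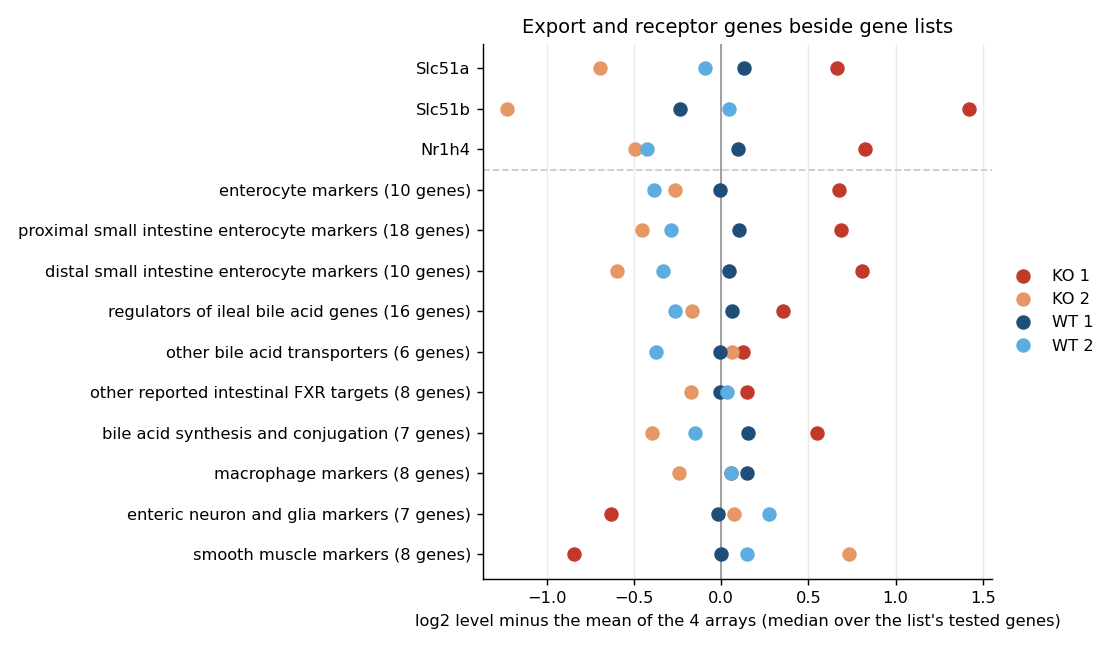
Levels of Slc51a, Slc51b and Nr1h4 (above the dashed line) and medians of 10 gene lists (below it) on each array, as log2 level minus the mean of the 4 arrays. KO 1 is the highest array for the 3 genes and for every list but macrophage, neuron and glia, and smooth muscle. It is the lowest for neuron and glia and for smooth muscle. KO 2 is the lowest array for the 3 genes and for the proximal, distal, synthesis, FXR target and macrophage lists. It is the highest for smooth muscle.

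Position along the intestine was read from genes other than the 8. All 18 proximal enterocyte markers, led by Adh6a and Gda, were well above background on all 4 arrays. Of the 11 distal markers with a probe, led by Prap1 and Clec2h, 8 were. Of the endocrine peptide genes on that list, Nts was well above background on no array and Pyy on all 4. Pyy had levels of 0.28 and -1.27 in the knockout and -0.89 and -1.02 in wild type. Several distal markers are graded along the gut and are not limited to the ileum. Gata4, a factor of the proximal small intestine known to hold ileal genes such as Slc10a2 low, was picked after its values were seen. Its levels were 2.34 and 1.75 in the knockout and 1.98 and 2.05 in wild type, well above background on all arrays. Cubn, an ileal receptor gene picked in the same way, had levels of 0.42 and -2.19 in the knockout and -1.87 and -1.71 in wild type on the brighter of its probes. Its other probe was not above background anywhere. The distal list's median relative to the wild-type mean was 0.97 in knockout 1 and -0.36 in knockout 2, and that of the proximal list 0.78 and -0.37. The distal list's summed level, which Prap1 dominates, had another order, with 706 and 831 in the knockout and 824 and 518 in wild type. Prap1 itself had a level of 9.25 in knockout 1 and of 9.65 in knockout 2, the reverse of the list's median. Of 8 markers of the large intestine, 5 were well above background on all 4 arrays, led by Slc26a3 and Aqp8, while Hoxb13 stayed under the background flag throughout.

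The rest of the bile acid pathway was described by 5 lists of 51 genes, of which 42 were tested. None of the 42 passed in limma's fit in either direction, and 0 had an unadjusted p under 0.05, against 0.0417% and 0.438% of all genes. The knockout lay above wild type without overlap in 2 of them (4.76%) and below in 3 (7.14%), against 8.66% and 6.09% of all genes. Among other bile acid transporters 6 of 10 were tested, with a median difference of 0.24. Abcb4, a phospholipid exporter known from bile canaliculi, had levels of 2.42 and 0.37 in the knockout and 0.30 and 0.42 in wild type, so knockout 1 alone was high. Its difference was 1.04 (SE 0.64). Abcc2, an apical exporter of conjugates, had levels of 3.88 and 2.39 in the knockout and 2.79 and 2.72 in wild type. Slc10a1, the liver's bile acid uptake transporter, had probes that disagreed, with levels between 8.49 and 9.36 on the brighter probe and no array well above background on the other, so its level is uncertain.

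Of 11 genes of bile acid synthesis and conjugation, 5 were well above background on all 4 arrays. Cyp7a1, the rate-limiting enzyme of the classic pathway, and Cyp8b1, Akr1d1 and Baat stayed under the background flag on every array. The 7 tested genes had a median difference of -0.03. Acox2, a peroxisomal oxidase of side-chain shortening, had levels of 1.05 and -0.40 in the knockout and -0.42 and -0.12 in wild type. Amacr, the racemase of that step, had 1.49 and 0.64 in the knockout and 0.91 and 0.73 in wild type, and Hsd3b7, a sterol dehydrogenase, had a difference of 0.20 (SE 0.30). Slc27a5, which activates bile acids in liver, was highest in wild type 1 at -1.06. On that array the hepatocyte markers summed to 12.7, against 2.36, 4.66 and 3.20 on knockout 1, knockout 2 and wild type 2. Of the 9 hepatocyte markers, 4 were well above background on all 4 arrays, led by Ttr and Cps1, and only Fga was on none. Serpina1a and Alb were highest in wild type 1, at 2.44 and 1.33. Ahsg, Fgb, Apoh and Tat were also highest there, at -0.03, -1.35, -2.26 and -2.49. Of these, Fgb was well above background on 1 array and Ahsg and Apoh on 2. Ttr and Cps1, at 0.63 and 0.50 in wild type 1, were not highest on that array.

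Other reported FXR targets of the intestine were well above background on all 4 arrays in 8 of 8 genes, with a median difference of 0.05. Il18, a cytokine gene, had levels of 3.84 and 2.18 in the knockout and 2.20 and 2.19 in wild type. Car12, a carbonic anhydrase, ran the other way, with -0.75 and 1.31 in the knockout and 0.72 and 1.44 in wild type. Pltp, the phospholipid transfer protein gene, had levels of -3.22 and -2.43 in the knockout and -2.06 and -2.29 in wild type, with no overlap (difference -0.65, SE 0.41, limma's adjusted p = 1.00).

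Factors that control ileal bile acid genes had a median difference of 0.20 over 16 tested genes. Ppara, a fatty acid sensor that acts on Slc10a2, had levels of 2.21 and 1.98 in the knockout and 1.86 and 1.21 in wild type, without overlap on its brightest probe (difference 0.55, SE 0.32). Another of its probes overlapped, with 1.52 and 2.07 in the knockout and 1.82 and 1.05 in wild type. Srebf2, a sterol-regulated factor, was likewise apart on its brighter probe, with a difference of 0.44 (SE 0.28). Its other probe overlapped, with -4.18 and -3.62 in the knockout and -3.89 and -4.14 in wild type. Nr1i2, the xenobiotic receptor PXR that controls Cyp3a genes, had 1.93 and 0.75 in the knockout and 0.89 and 0.57 in wild type. The list's median relative to the wild-type mean was 0.56 in knockout 1 and -0.04 in knockout 2. Of the Fgf15 receptor genes, Klb, the co-receptor β-klotho, was well above background on both wild-type arrays and on neither knockout array. Its levels were -5.67 and -4.17 in the knockout and -3.99 and -3.11 in wild type (limma's adjusted p = 1.00). Knockout 2 thus lay close to wild type 1, and all values were near background. Klb entered the test only through the wild-type arrays, so its detection in that genotype alone is no support for a difference and no fold is given. Fgfr2 had a difference of -0.20 and Fgfr1 one of -0.11 on its brightest probe, and the genotypes overlapped in both. The probes of Fgfr1 disagreed on the order of the arrays, with 0.07 and 1.14 in the knockout and 0.76 and 0.66 in wild type on the brightest and 0.05 and -0.85 in the knockout and -0.71 and 0.11 in wild type on the next.

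The genes whose pattern over the 4 arrays lay nearest to each ileal gene were found by the root mean square distance between levels centred on each gene's own mean. Nearest to Fabp6 were Pycard, H2-Aa and Gvin1, at distances of 0.05, 0.07 and 0.08, all lowest in wild type 2. Nearest to Slc10a2 were AY074887, Ereg and Cebpd, at 0.17 to 0.18, all highest in knockout 1 and lowest in wild type 1. For Slc51b, added after seeing the data, they were Cym, Clca4b and Slc6a19, a brush border amino acid transporter, at 0.09 each. With 4 arrays many genes share a pattern, and the distances are descriptions. None is given for Fgf15, which was not well above background.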

How the data were processed

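RNA of small intestine from Cyp3a-/- and wild-type mice was read on 1-colour Agilent arrays, 2 per genotype, grouped by the titles in the labels. Per the submitters' processing notes, Agilent Feature Extraction 11.5.1.1 turned the scans into spot values. Per the file headers, the processed intensity had its background subtracted and was spatially detrended, and its totals differ between arrays. The authors' deposited log2 value table does not state its scale. In all 39408 probes compared it came within 0.01 of the levels used here after each probe was centred on its median, with medians of -0.11, 0.12, 0.05 and -0.10 for knockout 1 and 2 and wild type 1 and 2. It therefore keeps differences and no levels.

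Control spots and spots with outlier flags (91 to 129 per array) were left out. No spot was saturated. Probes were named through their accession in RefSeq (GRCm38.p6). Of 39429 probes, 28025 matched 1 symbol and 11404 none. The array's annotation is of another build, so coordinates are given only with the RefSeq start-site sequences. Arrays were scaled to their 75th percentile. A probe entered if at least 2 of 4 arrays put it well above background, and a gene was read from its brightest probe. The genotype difference came from limma 3.58.1 in R 4.3.3 (lmFit, then eBayes allowing the variance to follow intensity), and p-values were adjusted by Benjamini-Hochberg over all genes tested. The same fitting code was also tested on simulated data. Alternatives were normexp (offset 50) on median spot and background signals, since the files give no mean, median and quantile scaling, no filter or a filter on all 4 arrays, the mean over probes, eBayes without a trend or robust, the authors' table, the replicate block and leaving out each array. With 2 arrays against 2, an exact permutation test of a single gene cannot go below p = 0.333.

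The genes, lists and rule for naming genes were chosen with earlier results of these data known. The rule names all 8 genes, Cyp3a11, the 3 genes of smallest p per pathway list, at most 2 per marker list, the brightest, and the 3 nearest patterns of Slc10a2, Fabp6 and Fgf15. Several marker lists are given by their sums or counts with none of their brightest genes named. Other names were picked after their values were seen, among them Gcg, Hoxb13, Fga, Nts, Pyy, Serpina1a, Alb, Slc27a5 and the other genes said to be under background. With slide as a term no degrees of freedom remained, and no slide correlation could be computed, so differences within the shared slide are given.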

Additional observations from a re-analysis of the deposited data

How the results depend on the processing

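The count of called genes was 6 in the fit used here and again with median or quantile scaling, the authors' table, the mean over probes, no trend and robust eBayes, and 7 with no filter. It was 13 after normexp, 32 with the replicate block, 14 on the enterocyte scale chosen after seeing the data, and 0 with probes required on all 4 arrays (41 at an unadjusted p under 0.05 in limma). It ran from 0 to 433 when an array was left out, with 0 without wild type 1 or wild type 2, 12 without knockout 1 and 433 without knockout 2. The lone array of a genotype is then assumed to vary like the others. Of the 7 tested bile acid genes, 0 to 1 passed when an array was left out, the exception being Slc51b without knockout 2, and 0 passed under the other settings, the replicate block included, which changed no call of these genes. The labels do not say that a number marks a shared animal or day, and the deviations of knockout 1 and wild type 1 from their group means had a correlation over genes of 0.05, so the numbers were not shown to pair the arrays. The direction of some small differences turned with the setting. Under normexp Gpbar1 had 0.63 and Nr1h4 -0.13, Slc51a had 0.0240 when scaled to the array's median and 0.75 within the shared slide, and on the enterocyte scale Fabp6 had -0.0045, Nr0b2 -0.29, Nr1h4 -0.0689 and Slc51b -0.21. The enterocyte scale subtracts 1 constant per array, so it moves the difference of every gene by the same amount and its turned signs show nothing particular to these genes. For the other settings the cause was not tested. Leaving out an array gave differences of -0.34 to 1.13 for Fabp6, -0.30 to 0.0323 for Gpbar1, -0.20 to 0.43 for Nr0b2, -0.33 to 0.99 for Nr1h4, 0.56 to 1.72 for Slc10a2, -0.71 to 0.64 for Slc51a and -1.14 to 1.52 for Slc51b. No filter, the filter on all 4 arrays, the mean over probes, the variance settings and the replicate block cannot move the difference of a gene with 1 probe, and the authors' table holds the same values, so they say nothing about direction. Signal close to background limits Slc10a2, Fabp6 and Fgf15. A random slide block was not run, since its correlation could not be estimated.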
